A study of Mus musculus with 2 samples.

Results

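The cells annotated Hematoendothelial Progenitor/Endothelium numbered 76 of the 5678 annotated cells of mouse embryos at E11.5. They were chosen by that name in the authors' deposited cell table, and the name was 1 of 16. The table came from single-cell RNA sequencing of 4 cell suspensions, each tagged with its own multiplexing oligo and run together as 1 droplet library. All suspensions carried a CAG-driven EGFP transgene linked to a DNA barcode and delivered by the piggyBac transposon, and no suspension without the transgene was analysed here. F0_8 and F0_9 were each made from a founder embryo, which received the transgene itself, F1_1 from 1 embryo of the generation after, and F1_mix from the cells of 2 F1 embryos put together as an artificial mosaic, counted here as 1 sample. The founders came from C57BL/6J eggs and sperm by in vitro fertilization; the eggs were electroporated with mRNA of the transposase mPBase and then injected with the donor plasmid. The study did not determine the sex of the embryos; summed over 4 Y-linked genes, the endothelial class stood at 1.44 and 1.18 UMIs per 10000 gene UMIs in F0_8 and F1_mix and at 0 in F0_9 and F1_1, so that each group held 1 suspension with and 1 without these transcripts. The mating that gave the F1 embryos was not given in the sources used here.

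Endothelial cells line blood and lymph vessels and are held by receptors for VEGF and angiopoietins, by the junction protein VE-cadherin and by Ets and Sox factors. Early blood cells arise from specialised endothelium under Runx1, so that endothelial and blood genes are for a short time found in the same cell. Macrophages of the embryo descend from blood progenitors of the yolk sac and fetal liver, depend on the receptor Csf1r and its ligands, and are known for complement C1q, Fc receptors and lysosomal proteases.

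By suspension the cells of this type made up 1.13% of F0_8 (18 of 1599 cells), 1.90% of F0_9 (25 of 1318), 1.15% of F1_1 (15 of 1310) and 1.24% of F1_mix (18 of 1451). No barcode occurred in more than 1 suspension. The cells held 289385 to 492752 UMIs (unique molecular identifiers, 1 per captured transcript) of genes per suspension, with medians of 16289 to 17619.5 per cell. The share of this cell type among all cells was 0.318 percentage points higher in the founders than in the F1 suspensions, a difference that an exact two-sided permutation test over suspensions did not separate from 0 (p = 1, n = 2 and 2), in a design whose smallest p is 0.333. Single suspensions have no replicate error, and every interval given for them covers counting error only.

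A list of 14 endothelial genes and a list of 14 macrophage genes divided the cells. Of the UMIs of both lists together, the macrophage share was computed for each cell, and a cell was placed in the macrophage class at a share of 0.9 or more, in the endothelial class at 0.1 or less, and between the classes otherwise. The endothelial class held 25 cells (32.9%, exact binomial 95% interval 22.5 to 44.6%), the macrophage class 43 cells (56.6%, 44.7 to 67.9%) and 8 cells lay between (10.5%, 4.66 to 19.7%). The name does not mention macrophages, and the class is named after its list, although 10 of its 43 cells held no C1q and some of these, described below, carried genes of other blood cells. Because the cells had been clustered on their expression of variable genes, and the classes were cut from these lists, the levels of genes by class are a description and carry no test.

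**Figure D1:**
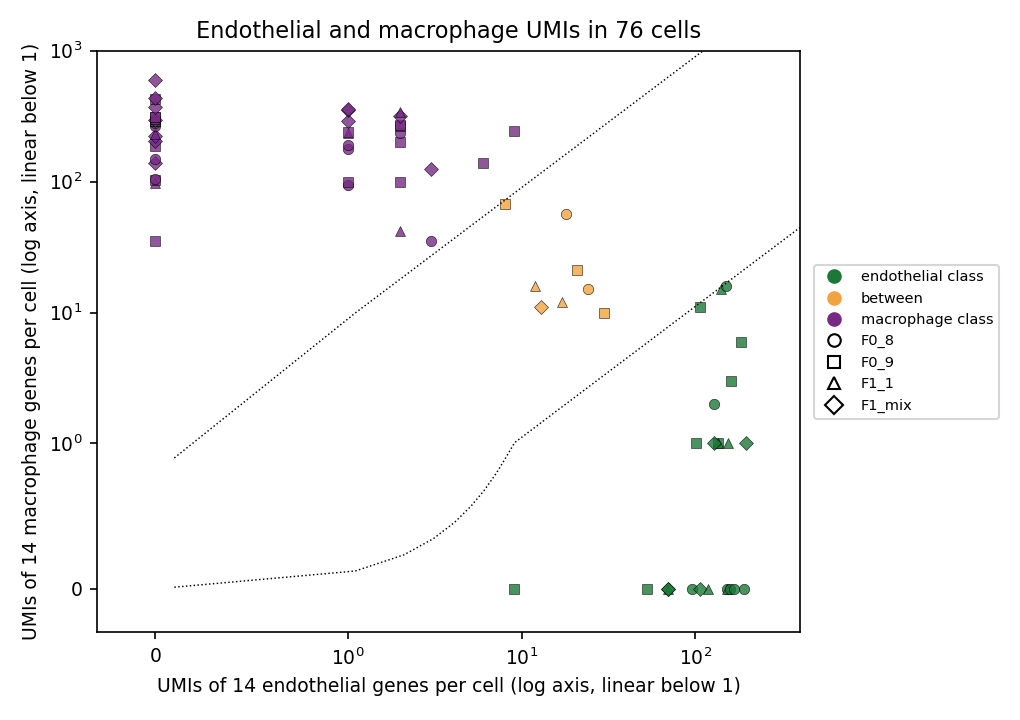
Each point is 1 of the 76 cells, placed by its UMIs of the 14 endothelial genes (x) and of the 14 macrophage genes (y), on log axes that are linear below 1. Colour marks the class, shape the suspension, and dotted lines the macrophage shares of 0.1 and 0.9; the 25 endothelial and 43 macrophage cells lie in opposite corners and 8 cells lie between.

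The division was sharp in most cells. Cells of the endothelial class held 9 to 195 UMIs of endothelial genes, with a median of 135, and 13 of the 25 held none of the macrophage genes. Cells of the macrophage class held 35 to 598 UMIs of macrophage genes, with a median of 236, and 22 of the 43 held none of the endothelial genes. At the endothelial limit, the last 3 cells inside had macrophage shares of 0.0932, 0.0962 and 0.0964 and the next cell outside had 0.25. At the macrophage limit, the last cell outside had 0.895 and the first inside 0.921. When detected genes were counted in place of UMIs, the cells between made up 28.9% of all and the macrophage class 42.1%, and with only Kdr, Pecam1, Cdh5, Tek, Csf1r and C1qa the cells between made up 5.26%, the endothelial class 40.8% and the macrophage class 48.7%.

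All 4 suspensions held cells of every kind. The endothelial class had 7, 7, 6 and 5 cells in F0_8, F0_9, F1_1 and F1_mix, the macrophage class 9, 15, 7 and 12, and 2, 3, 2 and 1 cells lay between. The share of macrophage-class cells was 50% (95% interval 26.0 to 74.0%), 60% (38.7 to 78.9%), 46.7% (21.3 to 73.4%) and 66.7% (41.0 to 86.7%) in the same order. It averaged 55% in the founders and 56.7% in the F1 suspensions, a difference of -1.67 percentage points, which an exact two-sided permutation test over suspensions did not separate from 0 (p = 1, n = 2 and 2).

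The division also stood in the other genes. In a principal component analysis of the 76 cells over 2000 variable genes, from which the 225 genes of all lists used here and the 13 mitochondrial genes had been removed, the first component carried 21.9% of the variance and followed the macrophage share with a correlation across cells of 0.960. Endothelial-class cells scored -17.4 to -11.1 on it, the cells between -5.64 to 0.0869, and macrophage-class cells -0.286 to 15.9. The endothelial class thus stood apart without overlap, while the cells between and the macrophage class overlapped at their edge. The first component followed depth little (correlation with log10 of the gene UMIs of -0.0678), whereas the second component, with 8.84% of the variance, followed it more (0.536).

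**Figure D2:**
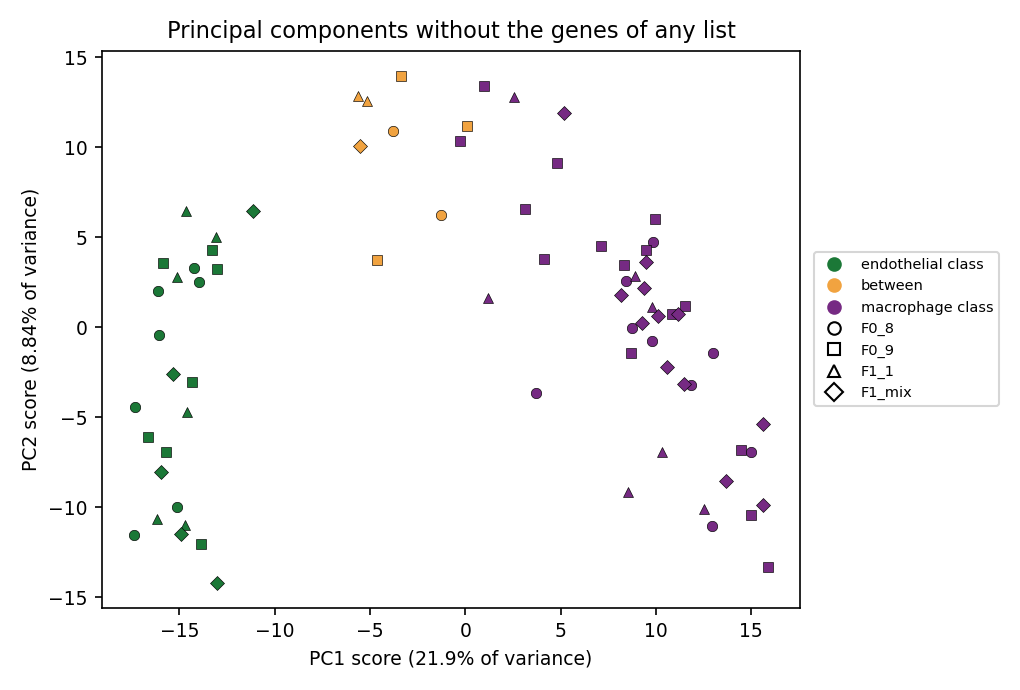
Scores of the 76 cells on the first 2 principal components, computed without the genes of any list; colour marks the class and shape the suspension. Endothelial-class cells lie at -17.4 to -11.1 on the first component, and the 8 cells between the classes lie at -5.64 to 0.0869, where they overlap the edge of the macrophage class.

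The authors' own RNA clusters, deposited beside the names, made a related split. Their cluster 15 held 24 of the 25 endothelial-class cells and had 33 cells in all, 7 of the others annotated Hepatocyte and 2 Endodermal Progenitor. Their cluster 9 held all 43 macrophage-class cells and all 8 cells between, together with 143 Erythroblast cells among its 199. The remaining endothelial-class cell, from F0_9, lay in cluster 0. It held only 9 UMIs of the endothelial list, 14 UMIs of Rgs5 and 9 of Kcnj8, both known from pericytes, and was the only cell of the 76 with either gene.

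All 28 genes of both lists had their highest level in this cell type among the 16. Levels are given as UMIs per 10000 gene UMIs of the cells summed, from 3′ tags that are not scaled to gene length, so that they compare cells and not genes. The list of 14 endothelial genes stood at 23.4 per 10000 here and at 1.54 in Hepatocyte, the next type, and the list of 14 macrophage genes at 72.4 here and at 2.62 in Endodermal Progenitor. CNS Neuron cells were read as a type that should lack both kinds of gene, and 15.04% of the 532 cells held at least 1 UMI of the endothelial list and 6.95% of the macrophage list, no cell more than 3, at levels of 0.159 and 0.0703 and a median depth of 10898.5 gene UMIs, against 17279.5 here. Of these UMIs, Ramp2 gave 33 and Egfl7 29 of 97 for the endothelial list, and Cd68 17 of 43 for the macrophage list, while C1qa, C1qb, C1qc, Cdh5 and Tek were at 0, and their source was not tested. Outside the type, 6 annotated cells held 20 or more UMIs of either list, namely 2 Hepatocyte, 2 Endodermal Progenitor, 1 Mesodermal Progenitor and 1 Erythroblast cell.

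The promoters of 4 list genes are shown because they hold a short Ets-type motif of the macrophage factor PU.1, whose gene Spi1 divided the classes as the list genes did. The stretches are the 250 bases before a start listed for each gene among RefSeq promoters of GRCm38.p6. They are written 5′ to 3′ on the strand of the gene, and capitals mark GAGGAAG or its reverse complement CTTCCTC. The RefSeq gene spans begin at chr4:130912890 for Laptm5 and, on the minus strand, at chr5:147726438 for Flt1 and chr4:136892936 for C1qc. The stretches of Laptm5 and Flt1 therefore lie inside the gene span, that of C1qc overlaps its span, and that of Mrc1 lies before it. C1qc (chr4:136892915-136893164, minus strand), Mrc1 (chr2:14229164-14229413, plus strand) and Laptm5 (chr4:130913066-130913315, plus strand) belong to the macrophage list, and Flt1 (chr5:147726012-147726261, minus strand) to the endothelial list.
C1qc: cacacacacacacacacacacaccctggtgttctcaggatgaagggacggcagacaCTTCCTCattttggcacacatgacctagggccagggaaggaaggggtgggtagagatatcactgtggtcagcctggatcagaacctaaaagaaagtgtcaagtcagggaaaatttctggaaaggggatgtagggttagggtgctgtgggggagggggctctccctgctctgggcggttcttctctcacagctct
Mrc1: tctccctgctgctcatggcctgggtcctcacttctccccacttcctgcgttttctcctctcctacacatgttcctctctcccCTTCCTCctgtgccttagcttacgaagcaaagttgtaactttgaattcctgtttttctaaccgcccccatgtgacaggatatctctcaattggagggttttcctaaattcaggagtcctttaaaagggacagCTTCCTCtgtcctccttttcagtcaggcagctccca
Laptm5: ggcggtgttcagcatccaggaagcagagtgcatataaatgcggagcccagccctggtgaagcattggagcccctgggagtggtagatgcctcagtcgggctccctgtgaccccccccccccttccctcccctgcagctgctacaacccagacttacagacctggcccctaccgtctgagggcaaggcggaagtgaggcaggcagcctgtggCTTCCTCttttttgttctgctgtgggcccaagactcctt
Flt1: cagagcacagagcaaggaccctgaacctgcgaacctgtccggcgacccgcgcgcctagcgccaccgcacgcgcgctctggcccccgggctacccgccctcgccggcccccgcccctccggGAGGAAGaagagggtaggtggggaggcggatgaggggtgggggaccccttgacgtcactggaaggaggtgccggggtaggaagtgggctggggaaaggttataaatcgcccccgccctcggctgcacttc
Promoters were at hand for 10 of the 14 macrophage genes and 8 of the 14 endothelial genes. Either strand held the motif in 4 of the 10, in 2 of the 8 (Flt1 and Tie1), and in 10.4% of the 27025 promoters of the same length, and Mrc1 held it 2 times. The GATA motif AGATAA, searched in the same way, was in 0 of the 10, 0 of the 8 and 10.25% of all promoters. These counts describe letters in a window and not binding.

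Of the endothelial receptors, Kdr, which binds VEGF, stood at 5.81, 4.46, 4.93 and 5.89 per 10000 in the endothelial class of F0_8, F0_9, F1_1 and F1_mix, and 1 UMI was found in the whole macrophage class. Tek, the angiopoietin receptor Tie2, stood at 2.51, 2.87, 2.46 and 8.38 and was at 0 in the macrophage class, a level at least 97.9-fold lower when 3 counts over the class are taken as the limit of a count of 0. For Tek, F1_mix was higher than the other 3 suspensions, but 1 cell gave 35 of its 64 UMIs. For Kdr the 4 suspensions lay close together.

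Flt1, the other receptor of VEGF, was held by 23 of the 25 endothelial-class cells, Tie1 by 23 and the adrenomedullin co-receptor gene Ramp2 by all 25. Of the junction and surface genes, Cdh5, which encodes VE-cadherin, stood at 6.10, 4.66, 6.16 and 3.54 in the endothelial class, with 2 UMIs in the macrophage class. Emcn, which encodes the sialomucin endomucin, stood at 8.76, 8.52, 8.22 and 12.05, at least 245-fold higher than in the macrophage class, where it was at 0. Ramp2, Cldn5, Plvap, Esam and Robo4 were likewise at 0 in all 43 macrophage-class cells.

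Pecam1 and Egfl7 gave the most UMIs of the endothelial list in the macrophage class, 18 and 21. Pecam1, an adhesion molecule that leukocytes also carry, stood at 4.81 in the endothelial class and at 0.225 in the macrophage class (exact Poisson 95% interval 0.133 to 0.356), a 21.4-fold difference, and was detected in 24 of 25 and in 13 of 43 cells. Egfl7, a secreted protein of vessels, was 24.9-fold higher in the endothelial class and was detected in 8 macrophage-class cells and in 7 of the 8 cells between.

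**Figure D3:**
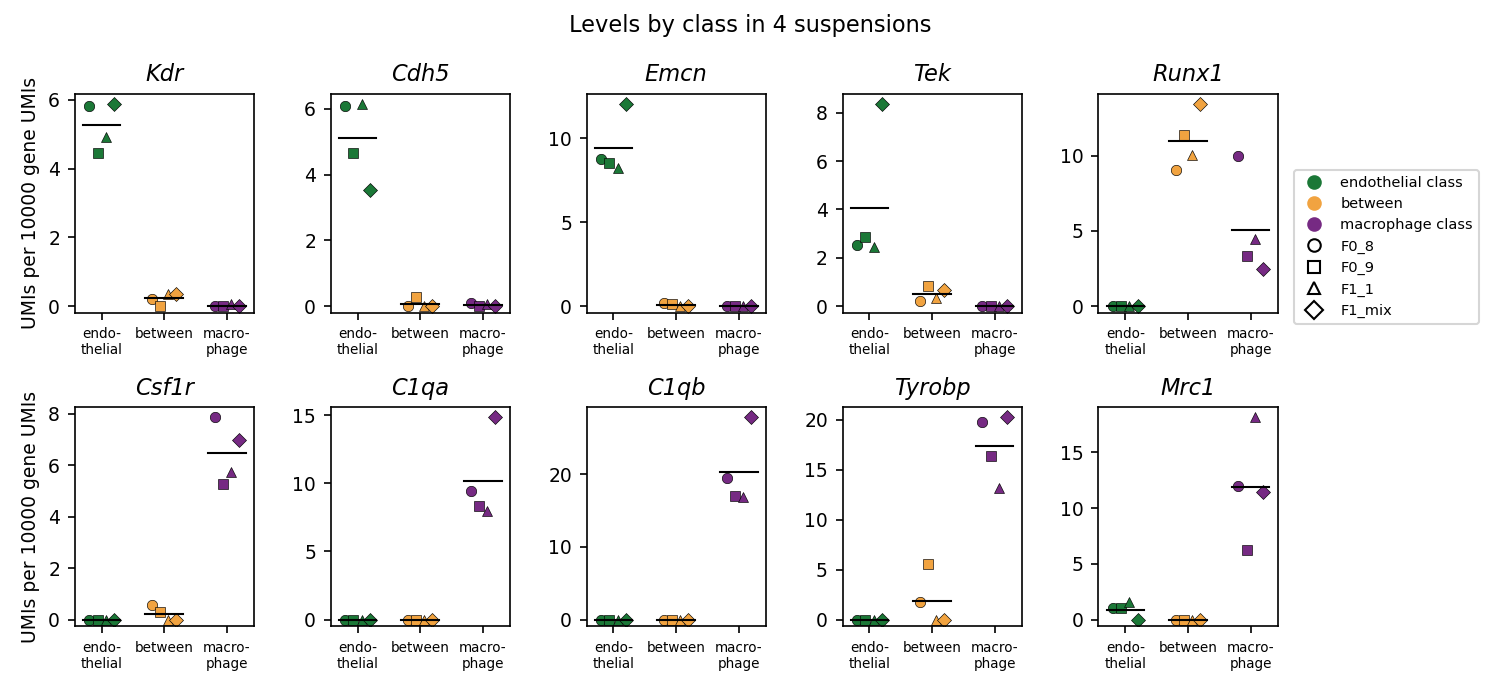
Level of 10 genes (UMIs per 10000 gene UMIs) in the endothelial class, the cells between and the macrophage class; each point is 1 suspension (shape) and the line is the mean of the 4. Kdr, Cdh5, Emcn and Tek are high only in the endothelial class, Runx1 is at 0 there and present in the other cells, and Csf1r, C1qa, C1qb, Tyrobp and Mrc1 are high in the macrophage class.

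The macrophage genes divided the cells in the other direction. Csf1r, the receptor on which macrophages depend, stood at 7.88, 5.29, 5.73 and 7.01 per 10000 in the macrophage class of the 4 suspensions and at 0 in the endothelial class, at least an 85.9-fold difference. C1qa, a chain of complement C1q, stood at 9.44, 8.34, 7.94 and 14.9 and was at least 142-fold higher. F1_mix had the highest level of C1qa, and also of C1qb (27.9 against 16.9 to 19.5) and C1qc (19.7 against 8.84 to 12.5), whose genes lie beside it on chromosome 4. These are levels over the whole class. Cells without any C1q numbered 3 of 9, 5 of 15, 2 of 7 and 0 of 12 in F0_8, F0_9, F1_1 and F1_mix. The rank of F1_mix thus does not show a higher level per cell with C1q.

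Tyrobp and Fcer1g, adaptors of activating receptors, were detected in all 43 macrophage-class cells. Tyrobp was at 0 in the endothelial class and Fcer1g had 2 UMIs there. Cd68, Aif1, Ctss, Fcgr1 and Adgre1, which encodes F4/80, were at 0 in the endothelial class and in 33, 36, 38, 36 and 39 of the 43 macrophage-class cells.

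Mrc1, the mannose receptor, gave the most UMIs of the macrophage list in the endothelial class. It stood at 10.6 per 10000 in the macrophage class and 0.966 in the endothelial class, a 10.9-fold difference. Its 40 endothelial UMIs came from 3 cells, 1 each in F0_8, F0_9 and F1_1, with 14, 11 and 15 UMIs, and these were the same 3 cells that lay nearest the limit of the class. Mrc1 gave 14 of the 16, 11 of the 11 and 15 of the 15 macrophage-list UMIs of these cells, beside 150, 107 and 141 UMIs of the endothelial list, and Csf1r, C1qa and Tyrobp were at 0 in all 3. Mrc1, Lyve1 and Stab1 are also known from sinusoidal and lymphatic endothelium. Stab1 was detected in each of the 3 cells and Lyve1, with 21 and 4 UMIs, in 2 of them.

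Each of the 14 endothelial genes was higher in the endothelial class and each of the 14 macrophage genes higher in the macrophage class without overlap of the 4 suspensions. Over all 2246 genes with at least 100 UMIs in both classes together, 19.5% stood higher without overlap in the endothelial class and 18.3% in the macrophage class. Of the list genes, 12 endothelial and 14 macrophage genes passed that minimum, and since the lists made the classes, nothing is read from their counts.

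Transcription factors that took no part in the classes followed them in part. Sox17, Sox18 and Sox7, which act in vessel formation, were detected in 14, 22 and 10 of the 25 endothelial-class cells and at 0 in the macrophage class, and Erg in 19 against 1 of 43. Spi1, which encodes PU.1, was at 0 in the endothelial class and in 42 of the 43 macrophage-class cells, and Ikzf1 at 0 and in 41. Fli1 was held by 22 of 25 and 38 of 43 cells, Lmo2 by 25 and 33, Hhex by 14 and 28 and Klf2 by 16 and 32, and these factors are known from both vessels and blood. The levels of Fli1, Hhex and Klf2 overlapped between the classes. Etv2, an early driver of the endothelial and blood lineages, was at 0 in all 76 cells. Of the 13 endothelial factors, 12 were detected and 5 stood higher in the endothelial class without overlap of the suspensions (Erg, Sox7, Sox18, Ets1 and Lmo2), and of the 10 macrophage factors 8 stood higher in the macrophage class. Only 5 and 6 of these factors reached 100 UMIs, the minimum behind the shares of 19.5% and 18.3% over all genes.

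Signalling genes showed where ligands and receptors lay. Beside Kdr and Flt1, the endothelial class held Nrp1, a co-receptor of VEGF, in 23 of 25 cells at 3.89 per 10000, but the macrophage class held it too, in 33 of 43 cells at 2.10. Flt4, the receptor of Vegfc, was in 16 of 25 cells and at 0 in the macrophage class, and Vegfc itself in 12 cells against 0. Eng, a co-receptor of the BMP family, was in all 25 cells at 3.70 and at 0.0875 in the macrophage class, and Id3, a target of that pathway, stood at 7.73 and 0.325. Csf1 gave 1 UMI and Il34 none in the 76 cells, both of which encode ligands of Csf1r.

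The lysosomal genes were high in the macrophage class but present in both. Summed over 10 genes, they stood at 69.7 per 10000 in the macrophage class (49.7 to 102 over the suspensions) and at 10.1 in the endothelial class (9.12 to 10.99), with a median log2 difference per gene of 2.65, against -0.09 over all 2246 genes. All 10 passed the minimum and 9 stood higher without overlap, against 18.3% of all 2246 genes. Ctsc, a protease that activates granule enzymes, was at 12.2 against 0.0966, and Lamp1, a membrane protein of all lysosomes, at 6.29 against 2.51. Of the phagocytic receptors, Trem2 and Mertk were at 0 in the endothelial class and in 35 and 27 of the 43 macrophage-class cells.

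Outside the lists, the 12 genes with the largest ratio in each direction were read by a fixed rule. In the endothelial class these were Mest, Col4a1, Gng11, Crip2, Col4a2, Cald1, Limch1, Col18a1, Cdkn1c, Ptprm, S100a16 and Fbxl7. Col4a1, Col4a2 and Col18a1 encode collagens of the basement membrane. Col4a1 stood at 13.7, 11.8, 8.52 and 9.30 in the 4 suspensions, in all 25 cells, with 1 UMI in the macrophage class. Mest, an imprinted gene, stood at 27.4 in the endothelial class and 0.075 in the macrophage class, in 25 of 25 and 6 of 43 cells. In every one of the 12 genes, the lowest endothelial suspension lay above the highest of the macrophage class, as the rule required.

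In the macrophage class the 12 genes were Lyz2, Stfa1, Coro1a, Cd52, Ly86, Ifitm1, Fyb, Ms4a6c, Rac2, Arhgap15, Fcrls and Tpd52. Coro1a, Fyb and Rac2, genes of the leukocyte cytoskeleton and its signalling, were each detected in all 43 cells, and Rac2 stood at 4.93, 5.48, 5.07 and 5.16 in the 4 suspensions with none in the endothelial class. Fcrls, known from microglia and other resident macrophages, was at 0 in the endothelial class and in 31 of 43 cells. Stfa1 and Ifitm1 rested on few cells, 8 and 6 of the 43, and Lyz2, the lysozyme of myeloid cells, was in 39.

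Within the endothelial class, markers of vessel kinds were spread unequally over the 25 cells. Of the venous genes, Nr2f2, which encodes COUP-TFII, was in 21 cells and Aplnr, the apelin receptor, in 16. Of the arterial genes, the connexin gene Gja4 was in 5 cells, Dll4 in 5 and Bmx in 2, while Efnb2 was in 15. Nr2f2 and Efnb2 were found together in 11 cells, Nr2f2 alone in 10 and Efnb2 alone in 4, and no cell lacked both. These 2 genes thus did not split the whole class into an arterial and a venous group. The 4 cells with Efnb2 alone held 40, 10, 54 and 30 UMIs of the 9 arterial genes, and 1 cell with both held 41. In the class Gja4 gave 15, 30, 22 and 0 UMIs in F0_8, F0_9, F1_1 and F1_mix.

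The lymphatic regulator Prox1 was found in 2 cells, with 17 UMIs in 1 cell of F0_9 and 1 UMI in a cell of F1_mix. Neither held Lyve1, and the 2 cells with Lyve1 held no Prox1. The VEGF receptor Flt4 was in 16 cells.

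Endocardial genes lay in a few cells. Tbx20, a T-box factor of the heart, was found in 3 cells with 48, 15 and 18 UMIs, 2 from F1_mix and 1 from F1_1, and in no founder cell. Gata4 was in 7 cells, of which 3 were the Tbx20 cells, 3 the Mrc1 cells described above and 1 neither. Nfatc1, which endocardial cells use in valve formation, was in 11 cells of the class but also in 15 macrophage-class cells. In the comparison of founders with F1 suspensions described below, Tbx20 had an adjusted p of 0.142 by edgeR in the endothelial class. Over the whole type its adjusted p was 0.240 by edgeR and 0.000567 by DESeq2, which called it lower in the founders, and all of its UMIs came from these 3 cells.

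The macrophage class was described further by complement C1q, a split chosen after its values were seen. C1qa, C1qb or C1qc was detected in 33 cells, with 13 to 284 UMIs and a median of 100, and in none of the other 10, at median depths of 16448 and 17051.5 gene UMIs. With every cell thinned to 5000 gene UMIs, C1qb was still found in 33 of 43 cells. In F0_8 3 of 9 cells lacked C1q, in F0_9 5 of 15, in F1_1 2 of 7 and in F1_mix 0 of 12, and a count of 0 of 12 allows a share of up to 25%.

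The 33 cells with C1q carried genes of resident macrophages. Mrc1 was in 28 of them and in none of the 10 others, Maf in 32 and 2, Dab2 in 31 and 1, Stab1 in 31 and 0, and Pf4 in 25 and 0. F13a1 stood at 11.8 per 10000 with C1q and 2.34 without. Genes known from microglia overlapped with these in detection: P2ry12 was in 28 cells of the class, 22 of which held Mrc1. Siglech was in 11, and Sall1, a factor that defines microglia, was at 0 in the class. By UMIs, the cells highest in the 7 microglia genes were from F1_mix, with 71 and 75 UMIs, and held 3 and 0 of Mrc1. The next highest, with 32, held 58 of Mrc1. A cell of F0_9 with 30 held no Mrc1 and 7 UMIs of Tmem119, another microglia gene. Whether such cells form a group was not tested. Cd163 was at 0 in all 76 cells and Timd4 gave 1 UMI, and both are common markers of tissue macrophages.

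The 10 cells without C1q carried genes of monocytes and their precursors. Plac8 was in all 10 and in 13 of the 33, Ccr2, the receptor by which monocytes leave the marrow, in 8 and 10, and the granule protease gene Prtn3 in 8 and 7. Tyrobp and Fcer1g were in all 10, but Csf1r only in 6. One of the 10, from F0_9, held 188 UMIs of Cpa3, the carboxypeptidase of mast cells and basophils, with 15 UMIs of Gata2, 4 of Kit and none of Csf1r. Another, from F1_1, held 12233 UMIs of the 7 globin genes among 46613 gene UMIs, 40 UMIs of erythroid genes and 98 of the macrophage list. Its doublet score of 0.241 lay within the range of 0.230 to 0.333 of the class, and whether 1 or more cells gave this barcode was not tested.

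A further 2 cells without C1q were unlike the rest in a set of neutrophil genes. A cell of F0_8 held 456 UMIs of S100a8, 223 of S100a9 and 196 of Stfa1, and a cell of F0_9 held 711, 1225 and 780. S100a8 and S100a9 encode the calprotectin subunits of neutrophils and monocytes, and Stfa1, Stfa3 and Cstdc4 belong to the stefin A family of protease inhibitors. The macrophage-list UMIs of the 2 cells were 95 and 35, mostly Tyrobp and Fcer1g, which neutrophils also carry.

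The 8 cells between the classes lacked part of both lists. None held any C1q, Cd68, Aif1, Ctss, Fcgr1 or Mrc1, or any of the venous genes, Cldn5 or Robo4. Runx1, the factor of blood formation, was in all 8 and at 0 in the 25 endothelial-class cells; it stood at 9.04, 11.3, 10.0 and 13.5 per 10000 in the 4 suspensions. Meis1, a homeobox factor of blood progenitors, was also in all 8, and Angpt1, the ligand of Tek, in 7 with 108 UMIs, against 0 in the endothelial class and 5 UMIs in the macrophage class.

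These 8 cells were deeper than the others, with 15352 to 32672 gene UMIs and a median of 26923, against medians of 17278 and 16448 in the endothelial and macrophage classes. Their doublet scores, the share of artificial doublets among a cell's neighbours as the authors deposited it, were 0.269 to 0.323, within the 0.226 to 0.360 of the endothelial class. Whether some of them held more than 1 cell was not tested.

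**Figure D4:**
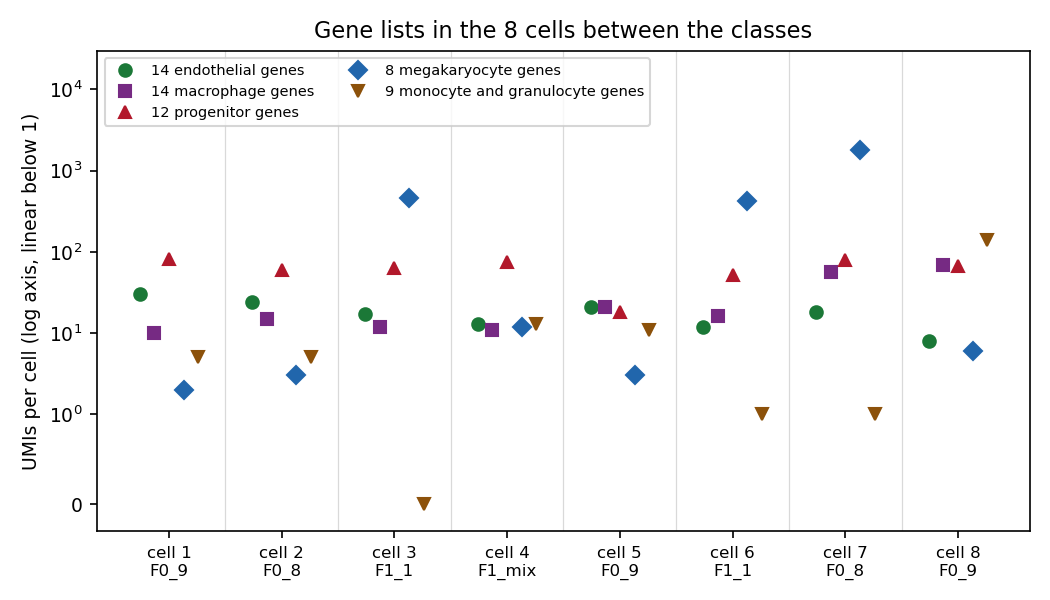
UMIs of 5 gene lists in each of the 8 cells between the classes, ordered by macrophage share and labelled by suspension, on a log axis that is linear below 1. Cells 3, 6 and 7 stand out with 426 to 1806 UMIs of the megakaryocyte genes and cell 8 with 140 UMIs of the monocyte and granulocyte genes.

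The 8 cells fell into several kinds. In 2 cells of F1_1 and 1 of F0_8 there were 459, 426 and 1806 UMIs of the 8 megakaryocyte genes, and the other 5 held 2 to 12. Pf4, a platelet chemokine, gave 380, 363 and 1443 UMIs in the 3 cells, and Itga2b, the platelet integrin chain, 18, 10 and 36. Treml1 and Gp9, also of the platelet lineage, were at 0 in both classes. The macrophage-list UMIs of the 3 cells were mostly Fcer1g, with 8, 11 and 52, and none had Csf1r.

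The other 5 carried progenitor and early white cell genes. A cell of F0_9 and a cell of F0_8 held Mecom (33 and 7 UMIs), Hlf (2 and 4), Kit (2 and 5) and Ptprc (7 each), the first 3 known from blood stem and progenitor cells. The cell of F1_mix held 59 UMIs of Angpt1, 4 of Kit and 4 of Myb. Another cell of F0_9 held 58 UMIs of Prtn3, 54 of Plac8 and 28 of Mpo, genes of early granulocytes and monocytes, and the last cell of F0_9 held 17 of Tyrobp, 20 of Egfl7 and 3 of Rag1, the recombinase gene of lymphocyte precursors. Only these small counts in single cells stand behind each description. Kdr was at 1 UMI in 4 of the 8 cells and Cdh5 at 2 UMIs in 1. Egfl7 gave 74 of the 143 endothelial-list UMIs of the 8 cells, unevenly. In order of macrophage share it gave 16 of 30, 16 of 24, 11 of 17, 3 of 13, 20 of 21, 5 of 12, 0 of 18 and 3 of 8.

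EGFP had taken no part in the clustering or in the classes. It was detected in every one of the 76 cells, and stood at 23.3 per 10000 gene UMIs in the endothelial class, 22.9 in the cells between and 17.9 in the macrophage class. By suspension the endothelial class stood at 16.6, 22.3, 44.3 and 9.95 and the macrophage class at 23.0, 10.4, 35.2 and 15.6 in F0_8, F0_9, F1_1 and F1_mix. F1_1 was highest in both classes. The macrophage class was higher in F0_8 and F1_mix and lower in F0_9 and F1_1, with a mean log2 ratio of -0.08 ± 0.80 (SD, n = 4), and an exact two-sided sign-flip permutation test over the 4 pairs gave p = 1, where 0.125 is the smallest possible.

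Founders were compared with the F1 suspensions on UMIs summed per suspension, by the quasi-likelihood test of edgeR, with p-values adjusted over all genes tested after Benjamini and Hochberg. The fit held 2 founders and 2 F1 samples, and in sums over cells, fewer cells of a kind and less RNA per cell cannot be told apart. Over all 76 cells, 2 of 5520 genes stood higher in the founders (0.0362%) and 0 lower, with 150 genes at an unadjusted p under 0.05, while DESeq2 called 5 higher (S100a8, S100a9, Stfa1, Stfa3 and Lyz2) and 2 lower (Tbx20 and Prkg1). They were S100a8, with 464 and 711 UMIs in F0_8 and F0_9 and 0 and 1 in F1_1 and F1_mix (adjusted p = 0.000359 by edgeR), and Stfa1, with 213 and 787 against 1 and 1 (adjusted p = 0.00674 by edgeR).

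In the macrophage class, 6 of 3289 genes were called higher in the founders (0.182%) and 0 lower, with 121 at an unadjusted p under 0.05, and DESeq2 called the same 6 higher and 0 lower. They were Stfa1, S100a8, S100a9, Stfa3, Cstdc4 and Lyz2. Lyz2, the only one of the 6 found widely, gave 438 and 635 UMIs in the founders and 111 and 165 in the F1 suspensions, a log2 fold change of 1.81 ± 0.30 (SE) with an adjusted p of 0.0448 by edgeR.

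The edgeR calls were traced to the cells that held their UMIs. Of the S100a8 UMIs of F0_8, 98.3% came from 1 cell, and of those of F0_9, 100%; of the Stfa1 UMIs, 92.0% and 99.1% came from the same 2 cells. Of the Lyz2 UMIs, the top cell of F0_8 gave 77.6% and that of F0_9 43.2%. With these 2 cells left out, a choice made after seeing the data, the whole type had 0 genes higher and 0 lower of 5444 (116 at an unadjusted p under 0.05, edgeR). In the macrophage class there were then 0 genes higher and 1 lower of 3322, and Lyz2 had a log2 fold change of 0.35 with an adjusted p of 0.999 by edgeR. The 1 gene lower was Hbb-y, an embryonic globin, with a log2 fold change of -9.24 and an adjusted p of 0.0235 by edgeR, and 99.8% of the Hbb-y UMIs of F1_1 came from the globin-rich cell. The edgeR calls of genes higher in the founders thus depended on these 2 cells. For Prkg1, a protein kinase gene with 38 and 42 UMIs in the founders and 246 and 77 in the F1 suspensions, 1 cell between the classes gave 72.0% of the UMIs of F1_1 and another 57.1% of those of F1_mix. It had an adjusted p of 0.00462 by DESeq2 and 0.9998 by edgeR over the whole type.

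**Figure D5:**
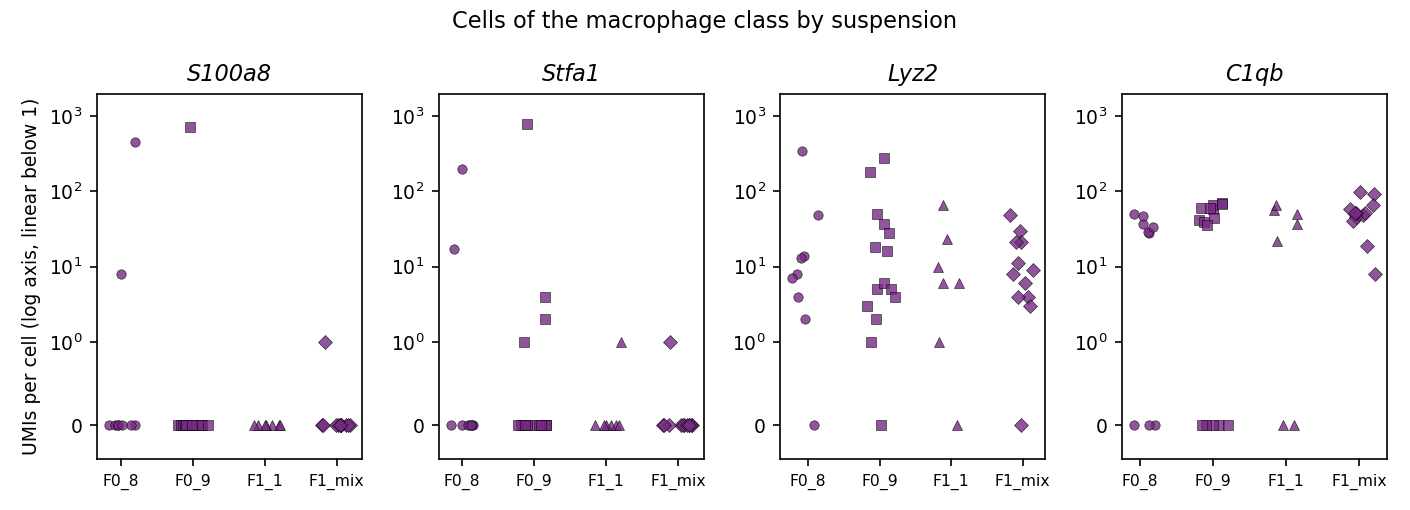
UMIs per cell of 4 genes in the 43 macrophage-class cells by suspension, on log axes that are linear below 1. S100a8 and Stfa1 reach over 100 UMIs in 1 cell of F0_8 and 1 of F0_9, whereas Lyz2 and C1qb are found in many cells of all 4 suspensions.

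In the endothelial class, 0 of 2156 genes were called in either direction by edgeR, with 87 at an unadjusted p under 0.05. The 2 genes with the lowest p were Cdkn1c, an imprinted inhibitor of the cell cycle, with 129 and 44 UMIs in the founders and 299 and 149 in the F1 suspensions (log2 fold change -1.91 ± 0.31 SE, adjusted p = 0.142 by edgeR), and Tbx20, with 0 and 0 against 18 and 63. DESeq2 called 2 genes lower and 0 higher in the founders, Cdkn1c (adjusted p = 0.00245 by DESeq2) and Lhfp, with 6 and 5 against 15 and 75 UMIs (adjusted p = 0.0138 by DESeq2). Cdkn1c was found in 21 of the 25 cells, and 1 cell gave 77.1%, 39.7%, 76.9% and 78.5% of its UMIs over the whole type in F0_8, F0_9, F1_1 and F1_mix. For Lhfp, 1 cell gave 50%, 80%, 93.3% and 72.7% in the same order. Of the list genes, 118 could be tested over the whole type, 54 in the endothelial class and 71 in the macrophage class, and edgeR called S100a8 in the whole type and S100a8 and S100a9 in the macrophage class, while DESeq2 also called S100a9 and Tbx20 in the whole type. The median log2 fold change of the list genes was -0.16, -0.07 and -0.21 in these 3 comparisons, against 0.00, -0.01 and -0.01 over all genes tested.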

How the data were processed

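UMI counts per gene were deposited by the authors as 1 matrix per suspension, which the file headers credit to Cell Ranger 7.2.0, aligned to GRCm38 with EGFP added. Cell names, clusters, the mitochondrial percent and the doublet score (a fraction from DoubletFinder, which had been used to remove doublets) were deposited by the authors in a cell table; SoupX is named in the methods, but uncorrected counts were used here. No doublet caller was run again. The members and gene lists were chosen with earlier results of these data known.

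Levels are UMIs per 10000 gene UMIs with exact Poisson intervals and shares carry exact Clopper-Pearson intervals. A class needed 5 UMIs of both lists together. Named genes were the members of the 2 class lists, the leading members of the other lists, the 12 genes each way outside them with the largest ratio (100 or more UMIs, no overlap of suspensions), and up to 10 called genes each way. Counts summed per suspension were tested with edgeR 4.0.16 (filterByExpr, TMM, quasi-likelihood) and DESeq2 1.42.0 in R 4.3.3. Only the edgeR step was also run on simulated counts. These had no single cells that dominate a gene, so that run does not bear on calls that rest on such cells. Other values came from Python 3.11.15 and scipy 1.17.1. Alternatives were other class limits, thinning to 5000 UMIs, filters, scalings and leaving out suspensions. The suspensions shared 1 library. All p-values measure only the spread between these 4 suspensions, which also holds the sampling of few cells per class, and F1_mix pools 2 embryos.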

Additional observations from a re-analysis of the deposited data

Results flagged for a closer look

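Among the 328 deposited barcodes without a cell type, which the comparisons did not use, 3 held 20 or more UMIs of either list, a signal in data that had no annotation. They held 25 endothelial and 0 macrophage UMIs (F0_8), 75 and 4 (F0_9), and 0 and 178 (F1_mix), at 4260, 5131 and 25300 gene UMIs.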

How the results depend on the processing

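The class shares moved by less than 1 SD over the suspensions under other limits, other minimum counts, thinning and with 1 suspension left out. They moved further when detected genes replaced UMIs, to 28.9% between and 42.1% macrophage, and with 6 marker genes, to 40.8% endothelial and 5.26% between. The founder difference in the macrophage share was 0.333 points at limits of 0.8 and 0.2 and -11.7 to 8.33 with 1 suspension left out (above 0 without F0_8, 3.33, or F1_mix, 8.33); the difference in the share of the type was -0.0671 (without F0_9) to 0.704 points, and the log2 ratio of EGFP -0.32 to 0.26 (above 0 without F0_9 or F1_1). None of these was separated from 0 in the full set. Genes higher and lower in the founders numbered 43 and 49 (whole type), 8 and 41 (endothelial class) and 33 and 19 (macrophage class) without a filter on low counts, and 5 and 2, 0 and 2, and 6 and 0 by DESeq2, whose calls included the 2 and 6 edgeR calls of the whole type and the macrophage class. With F0_8, F0_9, F1_1 or F1_mix left out in turn, so that the lone sample is assumed to vary like the others, they numbered 8 to 36 and 9 to 49, 0 to 44 and 9 to 94, and 19 to 31 and 13 to 20, and the cause was not tested. The last 2 alternatives were chosen after seeing the data: without the 2 cells rich in S100a8, 0 genes were higher in the whole type and 0 in the macrophage class, where 1 was lower, and without the globin-rich cell and the cell with Rgs5 the whole type had 2 and 0. No paired analysis was possible because the suspensions carry no replicate numbers that pair founders with F1 samples. The small number of cells, 25 and 43 in the classes, limits all of these counts.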
